A study of Mus musculus with 8 samples.

Results

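Transcripts of the integrins and of the proteins that tie them to actin at focal adhesions were compared between vascular smooth muscle cells labelled PMCA4 wild type and PMCA4 knockout. The genes were chosen by symbol: the integrin alpha and beta series, and a set of named adhesion plaque proteins. In all, 40 such genes had 62 of the 25697 probes on the array, and 26 of them had at least 1 probe above background (detection p under 0.05) on 4 or more of the 8 arrays, which was the condition for testing. The cells were primary smooth muscle cells of the carotid artery of male C57bl6 mice, with 4 arrays per genotype. PMCA4 is a plasma membrane calcium pump encoded by Atp2b4. The knockout group carried the PMCA4 knockout (1 label field spells it PMC4 KO), and the wild-type group carried no stated alteration. Cells of both groups were serum synchronised, given serum together with PDGF-BB (a growth factor for smooth muscle), stained with the DNA dye Hoechst and sorted for early G1, so that these steps were shared by every sample. The labels used here give neither the age of the mice, nor the deleted part of the gene, nor the number of mice or cultures behind the arrays. The p-values below therefore describe the spread among the samples of a group, and part or all of that spread may be technical.

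Between 11697 and 11987 probes per array were above background, and precision is limited by having 4 arrays in each group. The 1 Atp2b4 probe above background showed no difference past the threshold (log2 change 0.06, 95% interval -0.23 to 0.34). A further 2 Atp2b4 probes were below background on all arrays. A probe outside the deleted part checks nothing, so the direction of each change rests on the labels. Of the markers of the labelled cell type, Acta2, Tagln, Cald1 and Lmod1 were above background on all 8 arrays. In knockout they were 1.78-fold, 2.26-fold, 2.47-fold and 2.31-fold higher, while Smtn and Synm were 1.17-fold and 1.34-fold lower and Mcam did not pass. Cnn1, another contractile marker, was below background on all arrays, and Myh11 and Mylk were above it on the knockout arrays only.

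Integrins are membrane receptors made of 1 alpha and 1 beta subunit. The alpha subunit largely sets which matrix protein is bound (laminin, collagen, or proteins with an RGD motif such as fibronectin and vitronectin), and most alpha subunits of smooth muscle pair with beta1. Inside the cell, talin and kindlin bind the beta tail and switch the receptor on, vinculin strengthens the link to actin, the complex of integrin-linked kinase with PINCH and parvin holds the adhesion together, and paxillin and p130Cas (encoded by Bcar1) relay signals. In the artery wall, the laminin receptor alpha7 beta1 is a feature of contractile smooth muscle, while the fibronectin receptor alpha5 beta1 is known from cells that migrate and proliferate.

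The integrin alpha subunits changed in both directions. In knockout arrays the laminin-binding subunit Itga3 was 15.6-fold lower and Itga7 was 1.98-fold lower, while the fibronectin-binding subunit Itga5 was 5.18-fold higher. Itga6, another laminin-binding subunit, was 2.13-fold higher. The collagen-binding subunit Itga11 was at least 10.4-fold higher at its brightest probe and at least 1.92-fold higher at its other tested probe. Of the 10 plaque genes tested, 7 rose and 0 fell, with Lims2 (PINCH2) 3.05-fold higher and the other 6 by 1.19-fold to 1.47-fold. Of the 26 tested genes, 16 rose, 3 fell and 7 did not pass an adjusted p of 0.05 by limma, or 73.1% called. Over the 8302 genes tested on the array, 57.6% were called, 26.9% higher and 30.7% lower, so a call by itself sets few genes apart here. The median log2 change was 0.30 over the 26 genes and -0.02 over all genes tested. By the fitted change, 6 of the 26 were called and at least 2-fold apart, against 11.2% of all genes tested. Itga1, Itga9 and Itga11 passed the filter through the knockout arrays only and so had to differ. In a fit restricted to probes above background on all 8 arrays, 22 of the genes were left, of which 13 rose and 3 fell (72.7% called, against 57.8% of all probes in that fit). With all 26, the groups of 4 arrays did not overlap for 18 genes, against 53.5% of all genes tested.

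The upstream sequences of the 3 integrin genes with the largest changes and of Vcl are shown, to set genes that moved in opposite directions, and a plaque gene with a CArG box match, side by side. They are the 250 bases before the start of transcription as RefSeq annotates it on GRCm38.p6, with matches to 5 motifs in capitals: GGGCGG (the GC box of Sp factors), CCGGAA (an Ets site), GGAATG (TEAD), TGANTCA (AP-1) and the CArG box of serum response factor, each sought on both strands. Itga3 lies at chr11:95076715-95076964 on the minus strand, the farther upstream of 2 annotated starts. Itga5 lies at chr15:103366792-103367041 on the minus strand. Itga11 lies at chr9:62677605-62677854 on the plus strand, and Vcl at chr14:20929148-20929397 on the plus strand.
Itga3: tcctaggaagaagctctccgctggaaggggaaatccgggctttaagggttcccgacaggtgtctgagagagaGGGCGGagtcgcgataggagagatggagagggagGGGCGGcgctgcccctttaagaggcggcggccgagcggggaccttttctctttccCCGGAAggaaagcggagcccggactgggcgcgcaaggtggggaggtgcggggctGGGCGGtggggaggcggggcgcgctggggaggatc
Itga5: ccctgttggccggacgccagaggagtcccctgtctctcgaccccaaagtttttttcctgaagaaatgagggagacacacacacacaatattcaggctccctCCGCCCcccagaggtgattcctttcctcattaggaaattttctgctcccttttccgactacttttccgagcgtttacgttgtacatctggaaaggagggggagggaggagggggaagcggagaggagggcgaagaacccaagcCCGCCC
Itga11: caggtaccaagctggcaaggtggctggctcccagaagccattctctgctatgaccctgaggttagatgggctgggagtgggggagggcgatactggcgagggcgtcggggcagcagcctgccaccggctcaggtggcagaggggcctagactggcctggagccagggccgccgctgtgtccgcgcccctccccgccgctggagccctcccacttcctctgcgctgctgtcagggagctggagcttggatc
Vcl: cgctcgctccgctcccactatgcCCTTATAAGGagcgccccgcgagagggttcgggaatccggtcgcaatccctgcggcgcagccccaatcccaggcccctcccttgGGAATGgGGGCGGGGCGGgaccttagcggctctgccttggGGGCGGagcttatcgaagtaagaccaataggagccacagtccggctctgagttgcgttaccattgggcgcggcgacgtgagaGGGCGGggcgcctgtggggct
The Itga3 window held 3 GC boxes and 1 Ets match, the Itga5 window held 2 GC boxes, and the Itga11 window held none of the 5 motifs. In the Vcl window the CArG box began at -227 from the start, with a TEAD match at -143 and 4 GC boxes, of which those at -136 and -131 overlap. The 19 tested genes with such a window had 22 windows in all, since some have several starts. Of the 22, 2 windows held a CArG box (9.09%, those of Fermt2 and Vcl), against 1.47% of 32851 windows of the same length, and 12 held a GC box (54.5%), against 32.7%. The Ets, TEAD and AP-1 letters were found in 5, 2 and 1 of the 22 windows, against 12%, 12.6% and 6.75% of all windows. A match is a description of these letters, not a site shown to be bound.

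Among the laminin receptors, Itga3 encodes the alpha3 subunit, which pairs with beta1. Its log2 intensities were 10.87, 10.99, 10.91 and 10.89 on the wild-type arrays and 7.04, 7.15, 7.02 and 6.62 in knockout. All 4 wild-type arrays stood far above the knockout arrays, on each of which the probe was still above background. The change was -3.96 on the log2 scale (standard error 0.11, limma adjusted p = 1.11e-09), and it ranged from -4.14 to -3.63 over the processing alternatives. Itga7 encodes alpha7, the laminin receptor typical of differentiated muscle. Its values were 8.16, 8.11, 7.93 and 8.11 in wild type against 7.28, 7.24, 6.93 and 6.91 in knockout. Those groups did not overlap either, and the gene fell by 0.99 on the log2 scale (standard error 0.10, limma adjusted p = 1.75e-05). Itga6 encodes alpha6, which pairs with beta1 or beta4. Its values were 5.98, 6.36, 6.92 and 6.21 in wild type and 7.39, 7.50, 7.61 and 7.34 in knockout, so every knockout array was higher, and the wild-type arrays were spread widely. The change was 1.09 (standard error 0.17, limma adjusted p = 0.00038).

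Collagen receptors were near background in wild type. Itga11 encodes alpha11, a receptor for fibrillar collagen known from fibroblasts. Its brightest probe gave 5.03, 5.26, 5.06 and 5.27 in wild type and 9.22, 9.13, 9.06 and 9.30 in knockout. The wild-type arrays were all below background, so the fold is a lower bound of 10.4. It sets the knockout mean against the higher, on each wild-type array, of the lowest signal of any detected probe and the value of this probe. Itga11 passed the filter through the knockout arrays only and so had to differ, so no p-value is given. Its other tested probe was at least 1.92-fold higher, and its remaining probe was below background on all arrays, so the size of the rise depends on the probe. With the mean of its tested probes the fitted log2 change was 2.98. Itga1 encodes alpha1, a collagen receptor of smooth muscle. It was likewise above background in knockout only, at 7.03, 7.01, 6.47 and 7.13 against 5.57, 5.44, 5.51 and 5.51 in wild type. Its rise was at least 2.15-fold, and for the same reason no p-value is given. The third collagen receptor on the array, Itga2, was below background on all 8 arrays.

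Among receptors for RGD proteins, Itga5 encodes alpha5, the fibronectin receptor. Its values were 9.06, 8.93, 8.97 and 9.33 in wild type and 11.37, 11.43, 11.47 and 11.52 in knockout. The knockout arrays lay close together, more than 2 units above every wild-type array, and the change was 2.37 (standard error 0.09, limma adjusted p = 1.29e-08). The other Itga5 probe gave a similar change of 2.28. Itgav encodes alphav, which binds vitronectin and other RGD proteins. Its 4 wild-type values, between 9.52 and 9.68, overlapped the knockout values, between 9.59 and 9.94. The difference was 0.15 (interval from -0.04 to 0.33, limma adjusted p = 0.153). Itga2b, the platelet subunit alphaIIb, was dim on all arrays and differed by -0.18, with an interval from -0.55 to 0.19. The platelet markers Pf4, Ppbp, Gp9 and Treml1 were below background on all arrays, and Gp1bb, the 1 tested of 5, was lower in knockout (log2 change -0.51, limma adjusted p = 0.00401). Itga9, whose product binds tenascin C among other ligands, was above background in knockout only, and its bound was a small 1.16-fold. It passed the filter through the knockout arrays only and so had to differ, so no p-value is given.

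**Figure D1:**
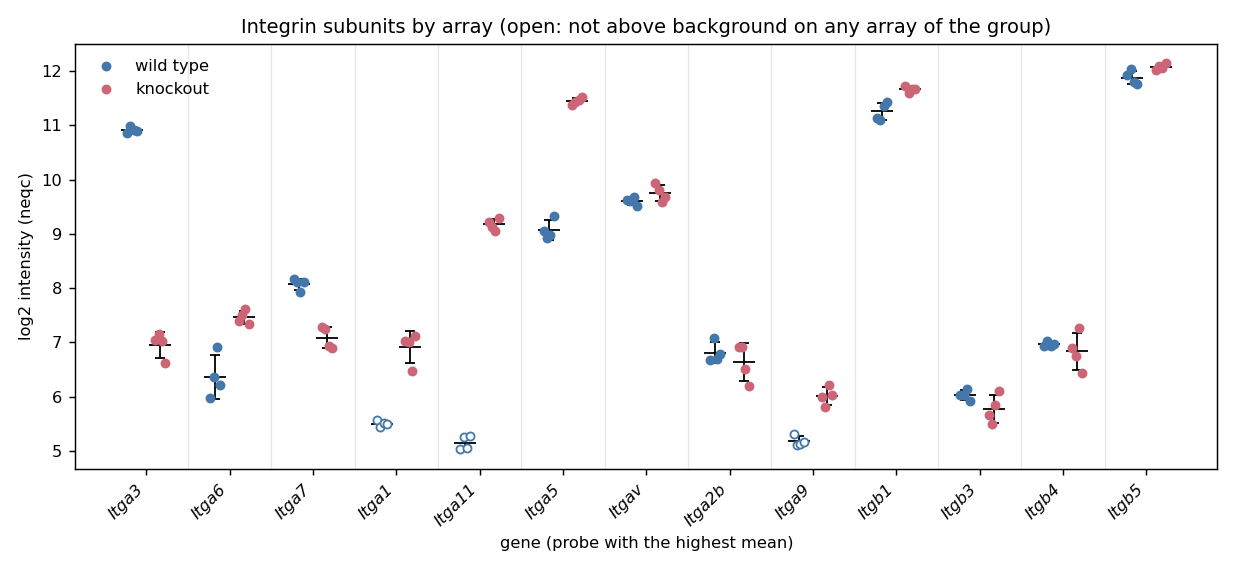
Log2 intensity of the 13 tested integrin subunits on each array (points) with the mean and SD of the 4 arrays of each genotype (bars). Itga3 dropped from near 10.92 to 6.96 on average and Itga5 climbed from 9.08 to 11.45, while open points for Itga1, Itga9 and Itga11 mark wild-type groups with no array above background.

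Beta subunits moved little. Itgb1, the common partner of most of these alpha subunits, gave 11.13, 11.11, 11.37 and 11.43 in wild type and 11.72, 11.60, 11.67 and 11.68 in knockout. The groups did not overlap, and the gene was 1.33-fold higher (log2 change 0.41, standard error 0.08, limma adjusted p = 0.00212). Its other probe rose 1.51-fold. Itgb5, a partner of alphav, lay between 11.77 and 12.03 in wild type and between 12.03 and 12.14 in knockout, with the ranges overlapping at their edges. This rise of 0.20 passed (limma adjusted p = 0.0397) and was lost in 10 of 20 alternatives, among them without wild-type replicate 3 (adjusted p = 0.095), without wild-type replicate 4 (0.104) or without any 1 of the 4 knockout arrays (0.0502 to 0.0968). Itgb3, another partner of alphav and the partner of alphaIIb, was above background on 4 wild-type and 2 knockout arrays. It differed by -0.25 (interval from -0.51 to 0.01, limma adjusted p = 0.0928). Without knockout replicate 4 this became -0.36 (adjusted p = 0.0119). Itgb4, the partner of alpha6 in hemidesmosomes, differed by -0.14 at its brightest probe (interval from -0.46 to 0.19), and by -0.36 at its dimmer one (limma adjusted p = 0.0601). With the mean of both probes the difference was -0.25 (adjusted p = 0.0113).

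Whether related subunits changed unequally was tested on the difference of their log2 values within each array. Of 31 pairs within a ligand class or paralog family, 10 had both genes tested, and in 7 of these both were above background on all 8 arrays. The smallest p that 4 arrays against 4 allow is 0.0286, which any pair whose groups do not overlap reaches, and groups of 4 did not overlap for 53.5% of single genes. Itga3 and Itga6 moved apart by -5.05 on the log2 scale: their difference was between 3.99 and 4.89 in wild type and between -0.72 and -0.35 in knockout (exact two-sided permutation p = 0.0286, adjusted p = 0.0357 over the 10 pairs). Itga3 also fell more than Itga7, by -2.97, and Itga5 rose more than Itgav, by 2.23 (same p for each). Itga6 against Itga7 differed by 2.08 and Itga5 against Itga2b by 2.55, also with the same p. In 3 of the 10 pairs a gene lay below background on arrays of 1 genotype, so no unequal change is read from their values. These were -2.62 for Itga1 against Itga11 (-4.23 with no background correction and -1.58 with the mean of probes), 0.66 for Itgb1 against Itgb3 and -0.45 for Itgb3 against Itgb5, with Itgb3 above background on 2 knockout arrays. For Itgav against Itga2b the difference was 0.32 (exact two-sided permutation p = 0.114, adjusted p = 0.127), and for Itgb1 against Itgb5 it was 0.21 (exact two-sided permutation p = 0.286), so unequal changes were not shown there.

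**Figure D2:**
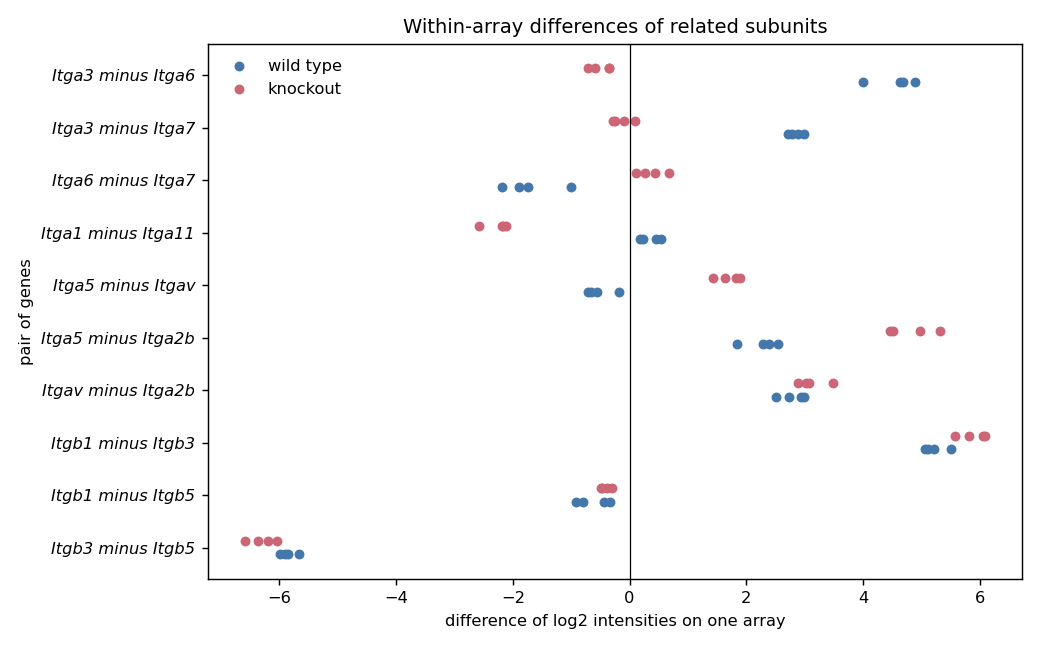
Difference of the log2 intensities of 2 related subunits on each array, by genotype. In the 3 laminin receptor pairs the genotypes are separate, with Itga3 minus Itga6 going from above 3.99 to below -0.35, while the points of Itgb1 minus Itgb5 overlap. Pairs with Itga1, Itga11 or Itgb3 include values below background.

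Of the 40 genes, 14 were not tested. Itga2, Itga4, Itgae, Itgam, Itgax, Itgb1bp2, Itgb2, Itgb2l, Itgb6, Itgb8, Fermt1 and Tln2 were above background on 0 of 8 arrays at every probe, and Itgb7 and Lims1 on 1. Among these, Itgam and Itgax (with Itgb2, the receptors of myeloid cells) and Itgae are leukocyte integrins, as is Itgb7, which was above background on 1 wild-type array. Of 11 leukocyte markers, 7 were below background on all arrays, among them Ptprc (CD45) and Tyrobp, and the summed background-corrected intensity of the list was 390 to 541 in wild type and 406 to 434 in knockout. Of its 4 tested markers, Cd14 was 3.34-fold lower and Coro1a did not pass. Lyz2 and Cd3e were at least 2.40-fold and 1.87-fold higher, but passed the filter through the knockout arrays only and so had to differ. The epithelial integrin Itgb6 was undetected beside 6 of 7 epithelial markers.

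Talin, kindlin and vinculin make the mechanical link. Tln1, which activates integrins, gave 6.96, 7.16, 7.00 and 7.35 in wild type and 7.30, 7.32, 6.93 and 7.30 in knockout. These overlapped, and the difference was 0.09 (interval from -0.16 to 0.35, limma adjusted p = 0.505). Fermt2, the kindlin of mesenchymal cells, lay between 12.03 and 12.28 in wild type and between 12.34 and 12.56 in knockout, and rose 1.21-fold (limma adjusted p = 0.0109). Vcl, vinculin, gave 13.74, 13.69, 13.70 and 13.88 in wild type and 14.08, 14.27, 14.17 and 14.38 in knockout, with no overlap. It rose 1.39-fold (log2 change 0.47, standard error 0.08, limma adjusted p = 0.00057). Zyx, zyxin, which is recruited to adhesions under tension, gave 14.80, 14.68, 14.54 and 14.89 in wild type and 15.13, 15.14, 15.15 and 15.14 in knockout. It was 1.33-fold higher (log2 change 0.41, limma adjusted p = 0.00118). Vasp, a zyxin partner that promotes actin growth, overlapped between the groups, with a difference of -0.13 (interval from -0.40 to 0.13).

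Among the tested transcripts of the complex of integrin-linked kinase, PINCH and parvin, the largest fitted change was that of PINCH2. Lims2, which encodes it, gave 9.77, 9.58, 9.60 and 9.92 in wild type and 11.26, 11.43, 11.22 and 11.40 in knockout. Every knockout array was more than 1 unit above every wild-type array, and the rise was 3.05-fold (log2 change 1.61, standard error 0.09, limma adjusted p = 2.08e-07). Its 2 other probes rose 3.47-fold and 4.16-fold. Ilk rose 1.19-fold at its brightest probe (limma adjusted p = 0.00719), and its 2 other probes differed by 0.16 and 0.34 on the log2 scale without passing (adjusted p = 0.0528 and 0.0918). Parva, alpha-parvin, lay between 12.23 and 12.44 in wild type and between 12.27 and 12.43 in knockout, a difference of 0.07 (interval from -0.09 to 0.22).

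The signalling scaffolds paxillin and p130Cas were both higher. Pxn gave 8.70, 8.77, 8.80 and 8.73 in wild type and 9.40, 9.21, 9.33 and 9.30 in knockout at its brightest probe. It rose 1.47-fold there (log2 change 0.56, standard error 0.06, limma adjusted p = 3.35e-05), while a dim probe near background differed by 0.03 (adjusted p = 0.888). Bcar1 gave 9.57, 9.04, 8.90 and 9.23 in wild type and 9.76, 9.83, 9.65 and 9.69 in knockout. The groups did not overlap although wild-type replicate 1 came close to the knockout values, and the rise was 1.46-fold (limma adjusted p = 0.00461).

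Of the genes whose symbols begin like those of integrins but which encode no subunit, 3 were tested. Itgb1bp1 encodes ICAP1, which binds the beta1 tail and competes with talin, and it rose 1.25-fold (limma adjusted p = 0.00183). Itgbl1, a secreted protein with integrin-like repeats, lay between 11.63 and 11.84 in wild type and between 12.42 and 12.53 in knockout, and rose 1.64-fold (limma adjusted p = 6.57e-06). Itgb3bp encodes CENP-R, a centromere protein first found as a binder of the beta3 tail. It fell 1.64-fold (log2 change -0.71, limma adjusted p = 4.29e-05).

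**Figure D3:**
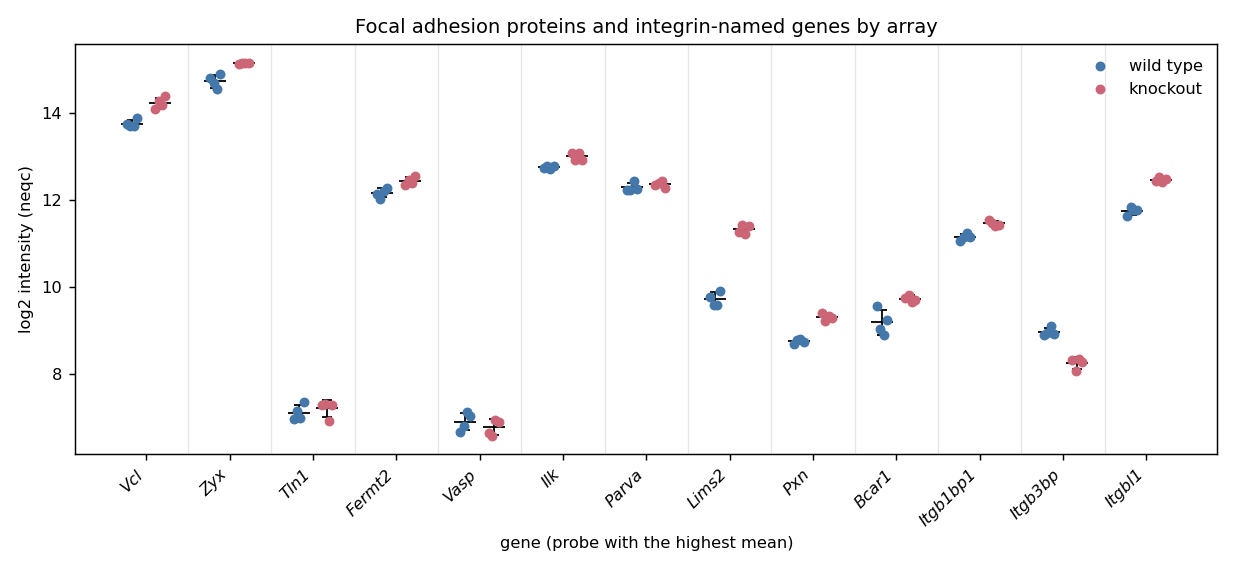
Log2 intensity of 10 tested plaque genes and 3 genes named like integrins on each array (points), with mean and SD of the 4 arrays of each genotype (bars). Lims2 shows the widest gap, from a mean of 9.72 to 11.33, while Tln1, Vasp and Parva overlap.

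**Figure D4:**
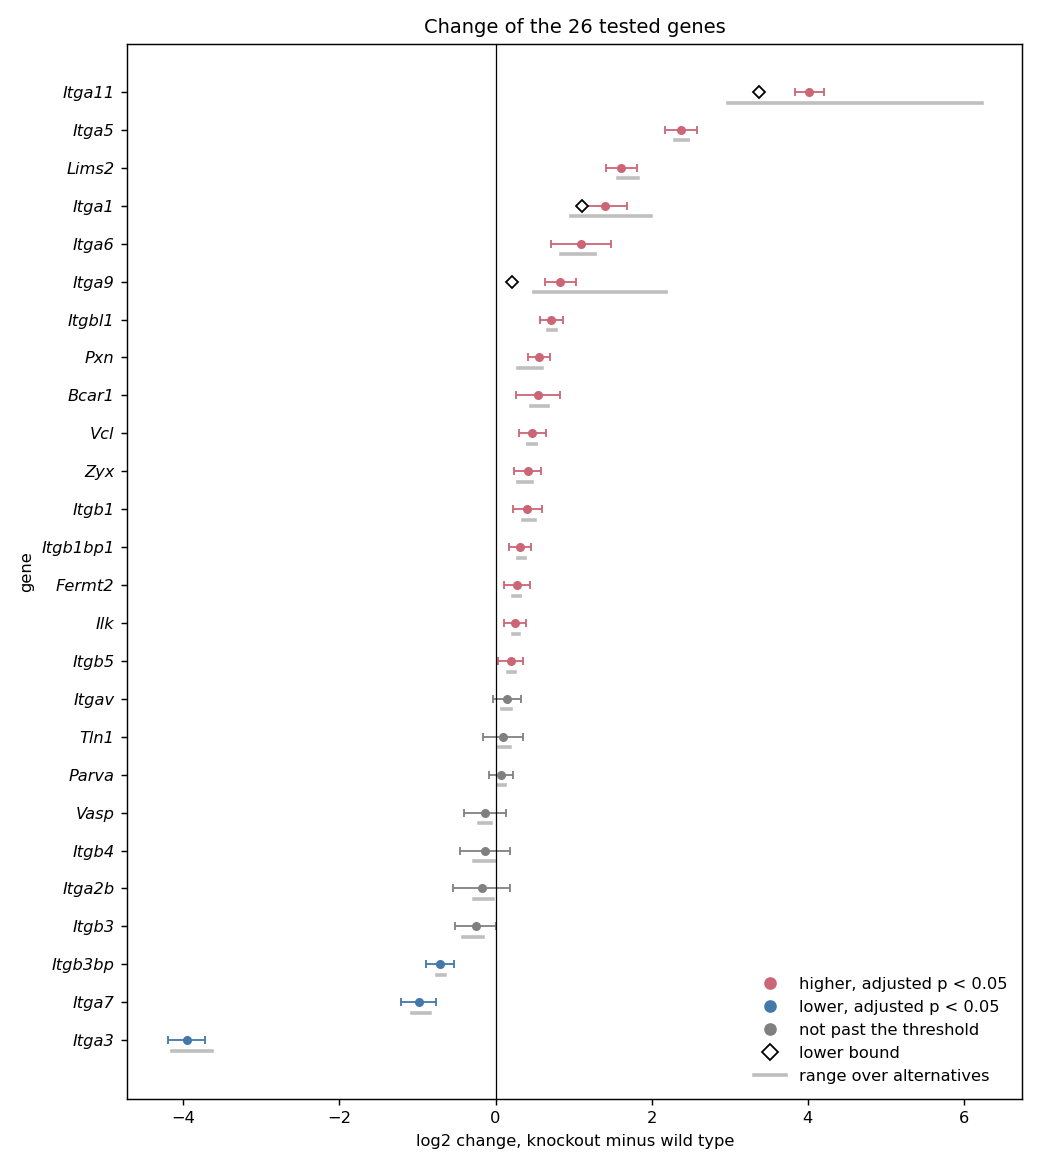
Log2 change, knockout minus wild type, of the 26 tested genes with 95% confidence intervals (points and bars), the range over processing alternatives (grey) and the lower bound where wild type was below background (diamonds). Itga3 at -3.96 and Itga11 and Itga5 at the other end stand apart, and most plaque genes lie between 0 and 0.6.

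Ligands of integrins were mostly higher. Of 20 tested integrin ligands, 13 rose, 5 fell and 2 did not pass (90% called, median log2 change 0.52), against 57.6% called, 26.9% higher and 30.7% lower over all genes tested. Tnc, tenascin C, rose 6.84-fold, and Icam1, the ligand of leukocyte integrins, rose 6.65-fold. The leukocyte integrin subunits Itgb2, Itgam and Itgax were below background on all arrays. Fibronectin (Fn1), the ligand of alpha5, was not among the 20 tested. Col4a1 and Col4a2, the basement membrane collagen IV chains, both rose 2.75-fold, and Col3a1, a fibrillar collagen, rose 2.54-fold. The 5 that fell were Mfge8, Thbs2, Npnt, Lamc1 and Nid1, with log2 changes of -0.80, -0.71, -0.67, -0.31 and -0.20. Of the other laminin chains tested, Lama2 and Lamb2 rose by 1.29 and 0.42 on the log2 scale, and Lamb1 did not pass.

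Among membrane partners of integrins more genes fell than rose. Of 16 tested, 3 rose and 9 fell (75% called, median -0.35), against 57.6% called and 30.7% lower over all genes tested. Cd9, a tetraspanin that associates with integrins, fell by 1.11 on the log2 scale (2.16-fold, limma adjusted p = 9.19e-08). Sdc1, a heparan sulfate proteoglycan that acts with integrins, was 1.88-fold lower, and Lgals3, a galactose-binding lectin, was 1.77-fold lower. Plaur, the urokinase receptor, and the tetraspanin Cd82 were 1.47-fold and 1.44-fold lower. The 3 that rose were Sdc2, Cd44 and Cd63, with log2 changes of 0.50, 0.33 and 0.19. Cd151, a tetraspanin that binds laminin-binding integrins, differed by -0.03 and did not pass.

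Of 27 kinases, phosphatases and adaptors of adhesion signalling tested, 11 rose and 6 fell (63% called, median 0.12). That share is near the 57.6% over all genes tested, so the count says nothing particular of this list, and single genes are given. Ptk2b, the calcium-sensitive relative of focal adhesion kinase, was 3.01-fold higher by the fit and was above background on 2 wild-type arrays (limma adjusted p = 2.74e-06). Rsu1, which binds PINCH1, rose 2.35-fold, and Apbb1ip, which brings talin to integrins with Rap1, rose 2.02-fold. The SH2-SH3 adaptors Nck1 and Nck2 went in opposite directions, 1.83-fold higher and 2.28-fold lower.

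Of 26 tested links to actin, 11 rose and 6 fell (65.4% called, median 0.08), again near the share over all genes tested (57.6%). Pdlim4, an actin-associated PDZ and LIM protein, rose 14.7-fold by the fit, with 3 wild-type arrays above background. Fhl2 rose 2.34-fold, Pdlim5 2.05-fold, the actin bundler Palld 1.88-fold and Pdlim1 1.81-fold. The 6 that fell were Kank1, Sorbs3, Cttn, Evl, Ezr and Trip6, with log2 changes of -0.83, -0.63, -0.55, -0.45, -0.35 and -0.27. Of 6 tested transcription factors and coactivators of the serum response and YAP/TEAD axes, 1 rose, 1 fell and 4 did not pass (33.3% called, below the 57.6% over all genes tested). Tead2 fell by 1.53 on the log2 scale, Yap1 rose 1.24-fold, and Srf differed by -0.07 and did not pass.

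**Figure D5:**
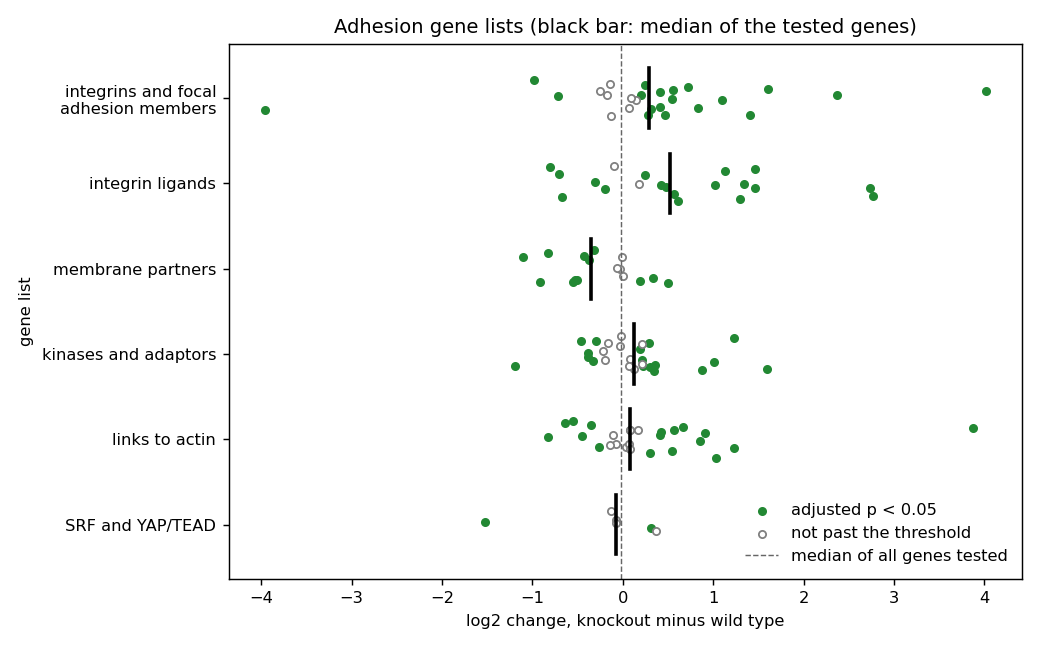
Log2 change of each tested gene in the integrin and focal adhesion set and in 5 related lists, with list medians (black bars) and the median of all genes tested (dashed line, at -0.02). Ligands have a median of 0.52 and membrane partners one of -0.35.

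Markers of other cells were measured beside these changes. Of 10 tested markers of adventitial fibroblasts, 8 rose and 0 fell (80% called, against 57.6% called and 26.9% higher over all genes tested). By the fit, Dcn was 109-fold, Igfbp6 31.0-fold, Dpt 11.0-fold, Sfrp1 10.1-fold, Cd34 4.35-fold, Pdgfra 1.88-fold and Pi16 1.56-fold higher. Lum passed the filter through the knockout arrays only, so it had to differ, and was at least 11.5-fold higher. Ptgis (log2 change -0.05) and Clec3b did not pass, and Col14a1 was below background on all arrays. The summed background-corrected intensity of the 11 markers on the array was 14852 to 16322 in wild type and 42344 to 46902 in knockout. Ptgis, with a wild-type mean log2 intensity of 13.61, made up most of the wild-type sums. Of 9 tested smooth muscle markers, 6 rose and 2 fell (88.9% called), with sums of 36280 to 44086 and of 67368 to 69422. Among the 6, Myh11 and Mylk passed the filter through the knockout arrays only and so had to differ. Acta2 was by far the brightest (mean log2 intensity 15.10 in wild type and 15.93 in knockout), so these sums mainly follow that gene. Itga11, Itga1 and Itga5 also rose in knockout. When only knockout and wild type are compared, every gene that rises does so in the same arrays, so no tie to either list is read from this. The part of a different mix of cells in these changes was not tested, and in such bulk samples more cells of a type and more RNA per cell cannot be told apart. Of 11 endothelial markers, 7 were below background on all arrays, including Pecam1, Cdh5 and Kdr. Of the 3 tested, Flt1 was 1.54-fold higher in knockout, and Plvap and Esam were 1.49-fold and 1.44-fold lower. The sums of the endothelial list were 494 to 566 in wild type and 514 to 569 in knockout. Of 8 Schwann cell and neuron markers, Ngfr, S100b and Tubb3 were below background on all arrays, and the 3 tested rose, with sums of 613 to 685 and of 1265 to 1365.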

How the data were processed

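Samples were grouped by the genotype in their titles. The deposited table of non-normalized values gives, per the file headers, an intensity and a detection p-value for each probe and array. Between 28.4% and 29.7% of the intensities were below 0, so background had been subtracted by the authors before deposit. The deposited table of log2 values has the same sorted values in every column to within 0.000531 and the ranks of the intensities, so it was quantile normalized, and it served as an alternative. No scanner software is named in the labels or headers.

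The intensities were processed by neqc (limma 3.58.1, R 4.3.3: normexp background correction from the detection p-values, offset 16, quantile normalization, log2). The 12040 probes above background (detection p under 0.05) on 4 or more arrays were fitted with lmFit and eBayes, knockout minus wild type, with Benjamini-Hochberg adjustment over all of them. Symbols came from the platform annotation, updated by gene identifier to GRCm38.p6. The tested probe of highest mean stands for its gene, and the text says where other probes differed. Every gene of the set with a tested probe is named, with up to 5 called genes of largest change from each related list. Also named are the genes that fell among the ligands and among the links to actin, and those that rose among the membrane partners. Those additions, and a few others (Cd151, Srf, Lama2, Lamb1, Lamb2), were chosen after their values were seen. Pairs were compared with an exact permutation test. The limma fit was tested on simulated data with known changes. The genes and lists were chosen with earlier results of these data known, and 1 related list is not reported here.

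The correlation of deviations between arrays of the same replicate number was from -0.0294 to 0.0871, so no pairing by number was seen. The labels do not say what the number marks, and a small shared effect could go unseen. Alternatives were other background corrections, scalings, filters, spread models, call rules and the replicate number as a block, and each array was left out in turn with the tested probes kept. Figures were drawn with matplotlib 3.10.9.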

Additional observations from a re-analysis of the deposited data

Results flagged for a closer look

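Among 52 groups of 4 arrays (26 genes in each genotype), 2 held an array set apart from the other 3 by more than the 95% limit of Dixon's test, and chance alone flags about 1 in 20 groups. The Parva value of wild-type replicate 3 was 12.44, against 12.23 to 12.25 on the other wild-type arrays. The Tln1 value of knockout replicate 3 was 6.93, against 7.30 to 7.32 on the other knockout arrays. Neither gene passed with all arrays or without the array in question.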

How the results depend on the processing

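With 16 genes of the set higher and 3 lower by the limma fit, the alternatives gave 13 to 16 higher and 3 or 4 lower, except that a minimum of 1.5-fold left 7 higher and 3 lower, and 2648 of 12040 probes called in place of 6777. Leaving out each array in turn gave 15 to 16 higher and 3 to 4 lower, and 6217 to 6672 probes called. At an adjusted p under 0.01 the calls of Itgb5 and Fermt2 were lost, and the minimum of 1.5-fold took those of Itgb1, Itgb5, Itgb1bp1, Fermt2, Vcl, Zyx, Pxn, Bcar1 and Ilk. Under the other alternatives the genes whose call changed while they were tested were Itgb5, Itgb3 and Itgb4, as given above, and no called gene changed direction. In the related lists, the minimum of 1.5-fold left 3 of the lower ligands, 0 higher and 3 lower membrane partners, 4 higher and 1 lower kinases and adaptors (7 higher at an adjusted p under 0.01), and 6 higher and 2 lower links to actin. The transcription factors and coactivators went from 1 higher to 0 with that minimum, and to 2 without the filter, with array weights or without wild-type replicate 1. With the replicate number as a block, 15 genes were higher and 3 lower, with 6541 probes called, and Itgb5 was the call that was lost (adjusted p = 0.0691). The fitted changes of the genes below background in wild type moved most, from 2.98 to 6.23 for Itga11, from 0.96 to 2.00 for Itga1 and from 0.49 to 2.19 for Itga9, so their bounds of 3.37, 1.11 and 0.21 on the log2 scale hold for the chosen probe under neqc. Scaling moved the median of all tested probes between -0.04 and 0.00 on the log2 scale. Signal over background limits what can be said of the 14 genes not tested.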
